A study of Drosophila melanogaster with 12 samples.

Results

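The genes described here copy chromosomal DNA or govern when a cell does so. The set holds 34 genes for origin recognition and licensing, origin firing, the replicative helicase and polymerases, ribonucleotide reductase and the E2F and Retinoblastoma regulators. Its members were chosen by function, by matching their FlyBase symbols to the gene identifiers of the deposited count table. The rule itself uses no measured value, but it was set with earlier results of these data known. All 34 were found among 17807 genes in the table, and 25 of them were among the 7584 genes with enough counts to be tested.

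The study counted RNA per gene in salivary glands of the fruit fly Drosophila melanogaster, taken 14 or 12 h after pupariation, in 3 libraries for each of 4 groups. It asked how a null mutation of E93, an ecdysone-induced transcription factor, altered hormone-regulated expression in late prepupal glands. Mutant animals carried w1118 fkh>GFP, then +/+, with the allele pair E93Δ12/E93Δ13. Control animals carried the same w1118 fkh>GFP and +/+ with 1 copy of another allele, written +/E93Δ1, so the control allele is named differently from either mutant allele. The fkh>GFP reporter, driven in the salivary gland, was thus common to all 4 groups. The labels do not say whether replicates came from separate animals or collections, so p-values measure the spread between these samples, which may be technical.

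Larval salivary gland cells grow by the endocycle, in which rounds of DNA synthesis follow each other without mitosis and chromosomes become polytene. Origins are bound by the origin recognition complex, loaded with the MCM helicase by Cdc6 and Dup (Cdt1), and fired when the Cdc7 kinase and Cyclin E with Cdk2 recruit Cdc45 and the GINS complex. In the fly gland the alternation of synthesis and gap phases turns on E2f1, which activates replication genes and is destroyed during synthesis, while Fzr keeps mitotic cyclins low.

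Library totals lay between 6977403 and 9497317 counts, so that 3 counts correspond to 0.316 to 0.43 CPM by library total alone. CPM is the read count of a gene scaled to the library's depth. The CPM of genes given below also use factors from the TMM method. On that scale 3 counts stood at 0.281 CPM for Psf3 in replicate 3 of the 14 h mutants. For Mcm3 in replicate 3 of the 12 h controls they stood at 0.519 CPM. Such limits cover counting error only. Transcripts over Eip93F, the E93 gene, stood at 1960, 1980 and 2020 CPM in mutant against 776, 865 and 894 CPM in control libraries at 14 h, and at 4060, 4310 and 3870 CPM in mutant against 1180, 1920 and 2080 CPM in control libraries at 12 h. They were thus higher in every library labelled mutant, and the labels do not say which bases the alleles alter, so these counts check the labels only in part. All 8 salivary gland markers were detected in every library. Gut markers summed to 100 CPM in the 14 h mutant replicate 2 and 206 CPM in the 12 h mutant replicate 1, against 1.26 to 2.68 CPM in 14 h controls and 2.16 to 4.85 CPM in 12 h controls. The 12 h control replicate 1 lay nearer the 14 h controls than its partners did for several genes below. In bulk samples, fewer cells of a type and less RNA per cell cannot be told apart.

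Most of the replication machinery was scarce in these glands. Over the 12 libraries the median tested member averaged 3.61 CPM, against 9.67 CPM for the median of all genes tested, and 15 of 25 members averaged below 5 CPM, as did 36.9% of all tested genes. Only RnrS, chif, Cdc7, RpA-70, Dp and Rbf averaged above 10 CPM. The first 5 of these made up 77.3% to 92.2% of the summed CPM of all 34 genes in each library. On a scale of CPM per kilobase of exon, on which genes can be compared, RnrS stood highest at 96.8, followed by RpA-70 at 33.2, Cdc7 at 23.4, chif at 12.8 and Dp at 8.69. The 6 MCM genes lay between 0.627 and 1.55 CPM per kilobase and PolE1, the catalytic subunit of DNA polymerase epsilon, at 0.106.

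The 9 members without enough counts to be tested were the origin recognition subunits Orc2, lat (Orc3), Orc5 and Orc6, the helicase loader Cdc6, the GINS subunits Psf2 and Psf3, the polymerase alpha subunit PolA2 and PolE1. None of them exceeded 1.77 CPM or 13 counts in any library, so that differences between groups were mostly not detectable at this depth. With no filter on low genes 1 passed in 1 comparison, Psf2, with 22 counts over the 14 h mutants and 1 count over the 12 h mutants (edgeR adjusted p = 0.0164); controls held 12 counts at 14 h and 8 at 12 h. The gene lat was at 0 in all 12 libraries. Its exons lie wholly within those of CG34315 on the same strand, a gene that was also at 0 in every library, so a count of 0 need not mean absence of the RNA where shared reads were not assigned. Shared exons also touch Mcm7, 81.7% of whose exon length lies opposite an antisense RNA, Psf3 with 34.9% and E2f2 with 19.9% on the opposite strand, and chif with 19.5% on the same strand as Hyls1. The strand setting of the counting is not given in the sources used here. It is thus not known whether reads of Mcm7, Psf3 and E2f2 were kept apart from those of their partners. For chif and Hyls1, on the same strand, that setting would not separate shared reads.

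Among the tested members only Psf1 passed between mutant and control glands at both times. At 14 h 1 of 25 tested members passed the test, Psf1, which was lower in mutants. That is 4% of members against a background of 15.2% of all genes tested (8.29% higher and 6.91% lower). At 12 h 4 of 25 passed, or 16%, against a background of 15.8%. Of these fzr and E2f1 were higher in mutants (8%, background 7.94%) and Psf1 and RnrS lower (8%, background 7.87%). The median log2 fold change of the members was 0.08 at 14 h and -0.07 at 12 h, beside 0.05 and 0.01 over all genes tested. In neither comparison did the other 21 members pass, and the share of members called was near the background at 12 h and below it at 14 h. The median tested member averaged 3.61 CPM against 9.67 CPM over all genes tested. The part of low counts in these shares was not tested.

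**Figure D1:**
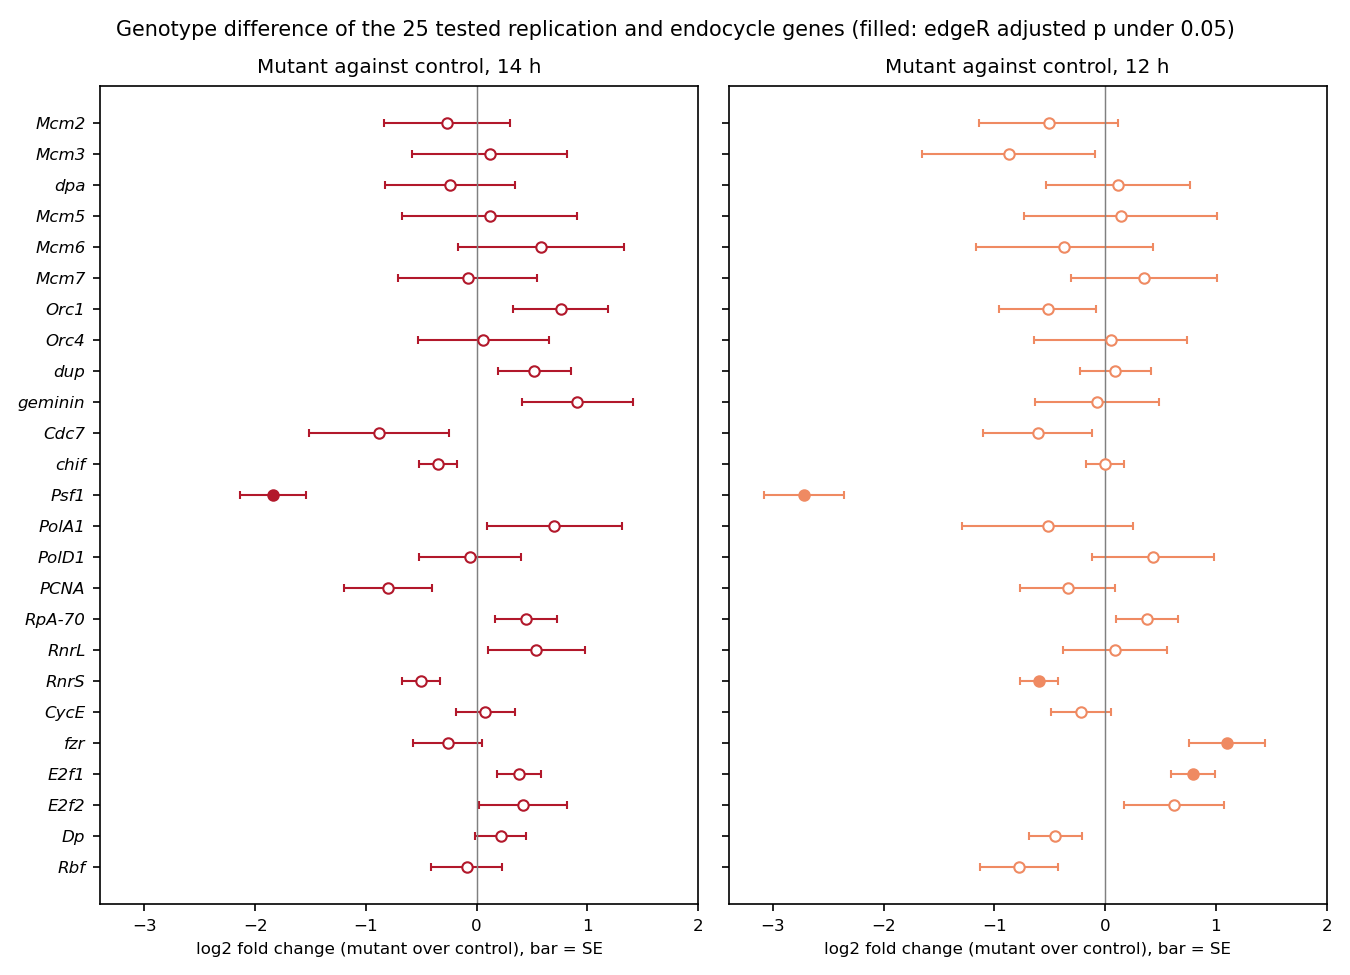
Log2 fold change of mutant over control glands (horizontal axis) for the 25 tested genes, at 14 h in the left panel and at 12 h in the right panel, with bars of 1 standard error and filled points where the edgeR adjusted p was under 0.05. Psf1 lies lowest in both panels, at -1.84 and -2.72, and the bars of most MCM genes cross 0.

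The 6 MCM genes, Mcm2, Mcm3, dpa, Mcm5, Mcm6 and Mcm7, encode the hexameric helicase that unwinds DNA at the fork. None differed detectably between genotypes. Their log2 fold changes ran from -0.27 to 0.58 at 14 h (SE 0.57 to 0.79, edgeR adjusted p 0.695 to 0.957) and from -0.87 to 0.35 at 12 h (SE 0.63 to 0.87, edgeR adjusted p 0.501 to 0.938). Summed over the 6 genes, the level was 24.1, 13.0 and 12.7 CPM in mutants and 16.4, 20.2 and 12.3 CPM in controls at 14 h. At 12 h it was 6.41, 7.59 and 26.4 CPM in mutants and 24.2, 15.1 and 2.42 CPM in controls. Replicates of a group thus spread more widely than the groups differed, with means of 13.5 ± 11.2 CPM in mutants and 13.9 ± 10.9 CPM in controls at 12 h (SD, n = 3 each). With standard errors of this size only large changes could have been called.

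The MCM genes moved together from library to library within a group. The highest value of all 6 fell in replicate 1 of the 14 h mutants and replicate 3 of the 12 h mutants, and that of 5 in replicate 1 of the 12 h controls. All 6 were lowest in the 14 h control replicate 3 and the 12 h control replicate 3. The 26 tested genes of a mitosis list, which holds the mitotic cyclins, kinases, condensins and kinetochore proteins, shared most but not all of these extremes: 23 were highest in that 14 h mutant library, 22 in that 12 h mutant library and 22 in that 12 h control library. Of the same 26, 18 were lowest in the 14 h control replicate 3 and 23 in the 12 h control replicate 3. The other extremes did not match: in 14 h controls 4 of 6 MCM genes were highest in replicate 2 but 16 of 26 mitosis genes in replicate 1, and in 12 h mutants the lowest MCM values were split 3 and 3 between replicates 1 and 2 while 16 mitosis genes were lowest in replicate 1. Summed over all 30 mitosis genes, the level was 152, 121 and 115 CPM in mutants and 123, 110 and 92.6 CPM in controls at 14 h, and 102, 124 and 169 CPM in mutants and 140, 106 and 74.9 CPM in controls at 12 h. The part of dividing cells in these differences was not tested.

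**Figure D2:**
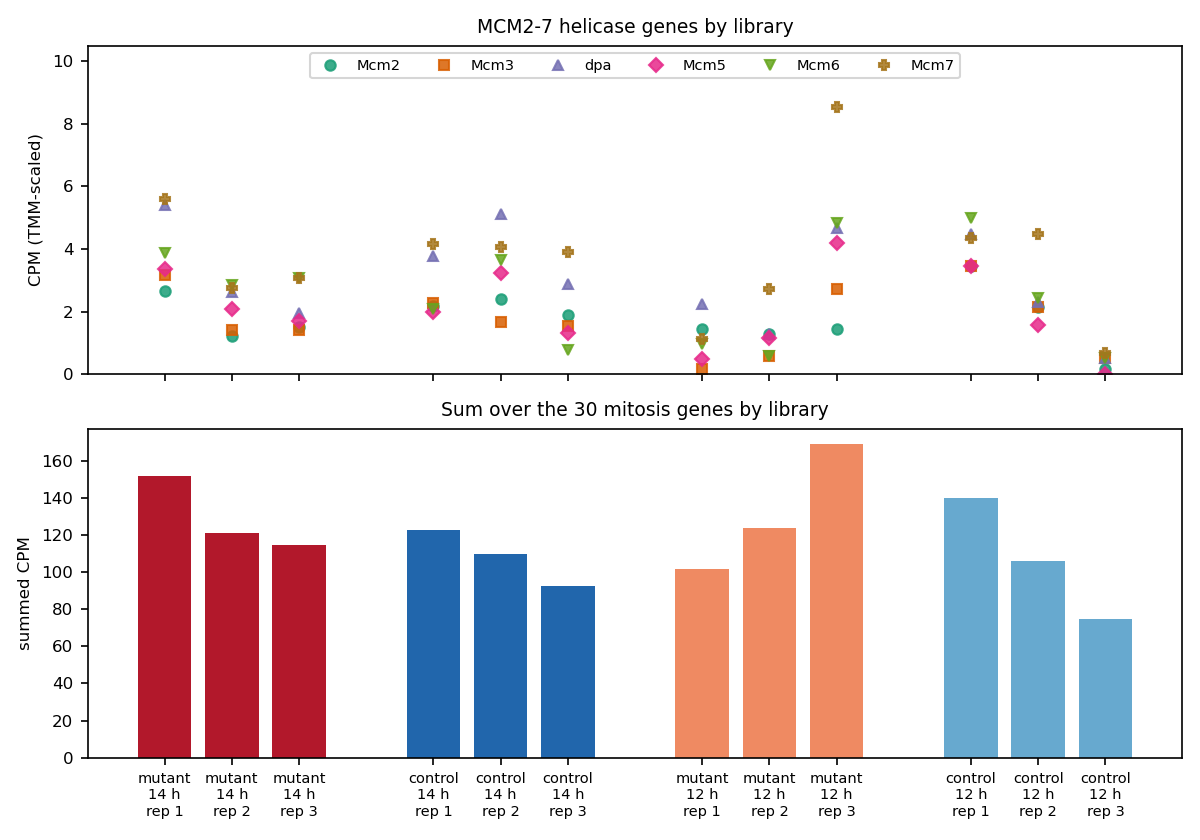
CPM of each MCM gene (upper panel, one symbol per gene) and summed CPM of 30 mitosis genes (lower panel) in each of the 12 libraries, grouped as mutant and control at 14 h and then at 12 h. The libraries with the highest MCM levels in the mutant groups, at a summed 24.1 CPM at 14 h and 26.4 CPM at 12 h, also have the highest mitosis sums, 152 and 169 CPM.

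Origin recognition and licensing genes showed no called difference between genotypes. Orc1, the ATP-binding subunit that starts the complex, was at 2.45, 2.86 and 1.97 CPM in mutants against 1.88, 1.15 and 1.22 CPM in controls at 14 h. The groups did not overlap, but the log2 fold change of 0.76 (SE 0.43) did not pass (edgeR adjusted p = 0.289). Geminin, the protein that binds Dup and blocks reloading of origins, was at 4.18, 3.74 and 2.90 CPM in mutants against 2.48, 1.26 and 2.00 CPM in controls at 14 h. Here too the groups were apart and the log2 fold change of 0.91 (SE 0.50) did not pass (edgeR adjusted p = 0.267). The log2 fold changes of dup at 14 and 12 h were 0.52 (SE 0.33) and 0.09 (SE 0.32), and those of Orc4 were 0.06 (SE 0.59) and 0.05 (SE 0.69).

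Psf1 encodes a subunit of GINS, the complex that joins MCM and Cdc45 to form the active helicase, and it was lower in mutants at both times. The gene (FBgn0035194) lies on chromosome 3L from 1246986 to 1247677 on the minus strand (BDGP6) and shares no exon with another gene. At 14 h its level was 2.04, 1.87 and 1.03 CPM in mutants against 6.04, 4.92 and 6.77 CPM in controls. At 12 h it was 0.801, 0.716 and 0.484 CPM in mutants against 5.25, 3.89 and 4.33 CPM in controls. Every mutant library lay below every control library of its time.

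The log2 fold change of Psf1 was -1.84 at 14 h (SE 0.30, 3.58-fold lower, edgeR adjusted p = 0.00124) and -2.72 at 12 h (SE 0.36, 6.6-fold lower, edgeR adjusted p = 0.000442). Behind these values stand 48 counts in mutants and 169 in controls at 14 h, and 13 in mutants and 93 in controls at 12 h. Both calls held in all 21 alternative settings, between -2.03 and -1.59 at 14 h and between -2.86 and -2.56 at 12 h. Psf1 passed the filters on low genes only with its control libraries, since single mutant libraries held 3 to 20 counts. The settings with such a filter are thus no separate support, and both calls also held with the filter left off. The 2 effects were not shown to differ, since the interaction was 0.88 (SE 0.47, edgeR adjusted p = 0.482). Psf1 carried most of the GINS signal: Psf1, Psf2 and Psf3 summed to 2.77 ± 0.721 CPM in mutants and 6.74 ± 1.04 CPM in controls at 14 h, and to 0.822 ± 0.0320 CPM in mutants and 5.06 ± 0.721 CPM in controls at 12 h (SD, n = 3 each). Sac1, whose start lies 139 bp from Psf1 on the opposite strand, had log2 fold changes of 0.02 at 14 h (edgeR adjusted p = 0.957) and 0.30 at 12 h (edgeR adjusted p = 0.333). The neighbour on the other side, CG32318 at 62 bp, had too few counts to be tested.

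**Figure D3:**
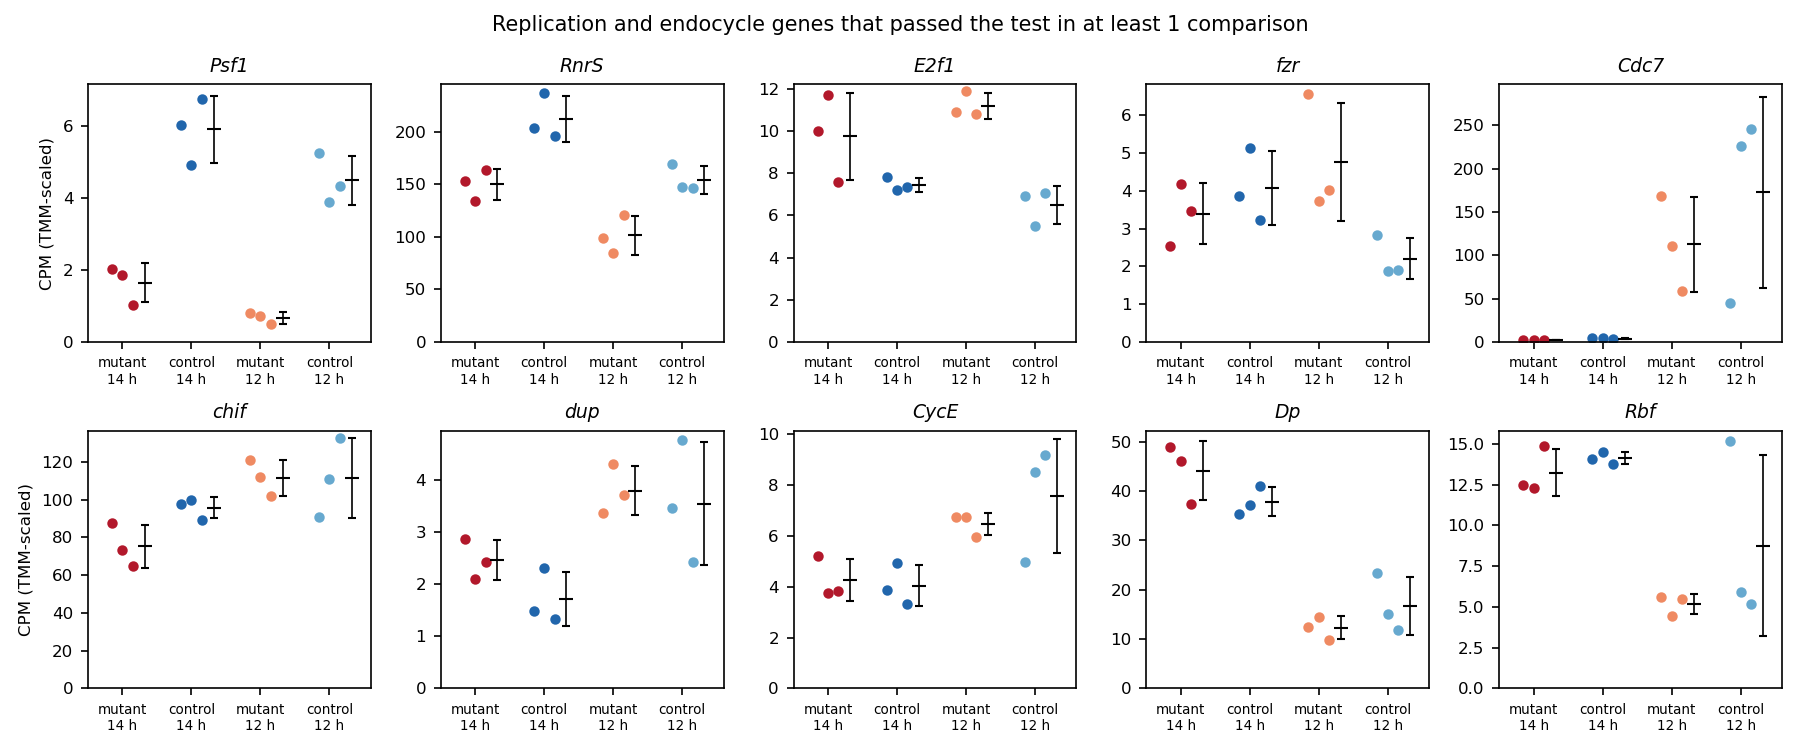
CPM in each library (points) with the group mean and SD (bars, n = 3) for the 10 genes that passed the test in at least 1 of the 4 comparisons of groups, with mutant left of control at 14 h and then at 12 h; each panel has its own axis starting at 0. Psf1 is lower in mutants at both times, Cdc7 is at 4.06 CPM or less in all 14 h libraries, and Dp is above 35 CPM in all of them.

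The origin-firing kinase genes did not differ between genotypes by the test. Cdc7, the catalytic subunit, was at 1.63, 1.87 and 2.53 CPM in mutants against 4.06, 3.97 and 3.11 CPM in controls at 14 h, apart in every library but at -0.88 on the log2 scale (SE 0.63, edgeR adjusted p = 0.419). The 12 h libraries held 168, 111 and 58.9 CPM of it in mutants and 45.3, 226 and 246 CPM in controls, overlapping, with a log2 ratio of -0.61 (SE 0.49, edgeR adjusted p = 0.448). Without the 12 h control replicate 1, the library at 45.3 CPM, Cdc7 passed as lower in 12 h mutants (-1.12, edgeR adjusted p = 0.039). Its partner chif, the fly Dbf4, stood at -0.35 on the log2 scale (SE 0.17, edgeR adjusted p = 0.216) at 14 h and 0.00 (SE 0.17) at 12 h.

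Among the polymerases and their helpers no gene passed between genotypes. PCNA, the sliding clamp, was at 7.96, 5.83 and 8.62 CPM in mutants against 11.6, 13.3 and 14.1 CPM in controls at 14 h. All mutant libraries were below all controls, and the log2 fold change was -0.80 (SE 0.40, edgeR adjusted p = 0.228). RpA-70, the large subunit of the single-strand binding protein, pointed the other way at 14 h, at 64.4, 65.8 and 101 CPM in mutants against 57.6, 51.1 and 59.7 CPM in controls (0.45, SE 0.28, edgeR adjusted p = 0.341). The catalytic subunits PolA1 and PolD1 had log2 fold changes of 0.70 (SE 0.61) and -0.06 (SE 0.46) at 14 h and of -0.52 (SE 0.77) and 0.43 (SE 0.55) at 12 h. In a fit of the 14 h libraries alone, PCNA, Cdc7 and RnrS passed as lower (-0.81, -0.90 and -0.52) and RnrL as higher (0.52), so that 5 members were called in place of 1.

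Ribonucleotide reductase makes deoxyribonucleotides from a large subunit, RnrL, and a small subunit, RnrS. RnrS (FBgn0011704) was the most abundant member per kilobase of exon and stood lower in every mutant library of each time. At 14 h it was at 153, 134 and 163 CPM in mutants against 203, 237 and 196 CPM in controls, and the difference of -0.50 on the log2 scale (SE 0.17) missed the threshold (edgeR adjusted p = 0.062). At 12 h it was at 98.6, 84.0 and 121 CPM in mutants against 169, 147 and 146 CPM in controls, or -0.60 on the log2 scale (SE 0.17, 1.52-fold lower, edgeR adjusted p = 0.0295).

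The 12 h call for RnrS was lost in 8 of 21 alternatives, with values from -0.76 to -0.52. Leaving out 1 library ended it for the 12 h mutant replicate 1 (-0.58, edgeR adjusted p = 0.0959), the 12 h mutant replicate 2 (-0.52, edgeR adjusted p = 0.0701) and the 14 h control replicate 1 (-0.60, edgeR adjusted p = 0.0504). At 14 h RnrS passed as lower without the 12 h control replicate 1, the 12 h mutant replicate 2 or the 12 h mutant replicate 3, at -0.54 each (edgeR adjusted p 0.0238 to 0.0372), and with DESeq2 (-0.54, adjusted p = 0.00815). The 2 subunits differed in direction at 14 h, where RnrL was at 12.4, 11.1 and 14.5 CPM in mutants against 9.12, 8.26 and 8.88 CPM in controls (0.54, SE 0.44, edgeR adjusted p = 0.494), a difference that did not pass.

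Of the cell cycle regulators, fzr rose in mutants at 12 h and CycE did not pass at either time. The gene fzr encodes the Cdh1-type activator of the anaphase-promoting complex that removes mitotic cyclins when cells enter the endocycle. It stood at 6.57, 3.72 and 4.03 CPM in 12 h mutants against 2.82, 1.88 and 1.90 CPM in 12 h controls, apart in every library (log2 fold change 1.10, SE 0.34, edgeR adjusted p = 0.0443). At 14 h it was at 2.55, 4.18 and 3.46 CPM in mutants against 3.86, 5.13 and 3.22 CPM in controls, overlapping (-0.26, SE 0.31, edgeR adjusted p = 0.669).

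The 12 h call for fzr was fragile, lost in 15 of 20 alternatives with values from 0.80 to 1.27 and adjusted p up to 0.194. It was lost on leaving out the 12 h control replicates 2 or 3, the 12 h mutant replicates 1 or 3, any 14 h control or the 14 h mutant replicates 2 or 3, with adjusted p from 0.0506 (12 h mutant replicate 3) to 0.171 (12 h mutant replicate 1, 0.80). The change of the genotype effect between times was -1.36 (SE 0.46) and did not pass (edgeR adjusted p = 0.177). CycE, the cyclin that drives entry into DNA synthesis, had log2 fold changes of 0.08 (SE 0.27) at 14 h and -0.22 (SE 0.27) at 12 h.

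The E2F family is made of the activator E2f1, the repressor E2f2 and their partner Dp, with Rbf, the fly Retinoblastoma protein, as inhibitor. E2f1 rose in 12 h mutants, at 10.9, 11.9 and 10.8 CPM against 6.92, 5.48 and 7.09 CPM in 12 h controls, with no overlap (log2 fold change 0.79, SE 0.20, 1.72-fold, edgeR adjusted p = 0.0221). At 14 h it was at 10, 11.7 and 7.58 CPM in mutants against 7.83, 7.22 and 7.33 CPM in controls, where the groups overlapped (0.38, SE 0.20, edgeR adjusted p = 0.236). The 12 h call was lost in 6 of 21 alternatives, among them those without the 12 h control replicate 2 (0.65, edgeR adjusted p = 0.0853) and without the 12 h mutant replicate 2 (0.70, edgeR adjusted p = 0.0576). At 12 h Rbf stood at -0.78 (SE 0.35) and Dp at -0.45 (SE 0.24) on the log2 scale, below 0 without passing. For both genes the 12 h control replicate 1 was the highest 12 h library. Rbf was at 15.2, 5.91 and 5.19 CPM in 12 h controls against 5.61, 4.44 and 5.48 CPM in 12 h mutants. Dp was at 23.3, 15.1 and 11.8 CPM in 12 h controls against 12.5, 14.5 and 9.84 CPM in 12 h mutants. E2f2 was at 0.42 (SE 0.40) at 14 h and 0.62 (SE 0.45) at 12 h. Without the libraries with gut markers and the 12 h control replicate 1, E2f2 passed as higher in 12 h mutants (1.49, edgeR adjusted p = 0.0249) and Cdc7 as lower (-1.52, edgeR adjusted p = 0.00832).

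Leaving out both libraries with gut markers ended the 12 h calls of RnrS, fzr and E2f1, with log2 fold changes of -0.58, 0.81 and 0.81 (edgeR adjusted p 0.127, 0.194 and 0.054), and Psf1 alone remained called among the members. That setting kept the 12 h mutant replicate 2, where gut markers summed to 21.9 CPM. With single libraries left out the number of members called at 12 h ran from 2 to 5, being 2 without the 12 h control replicate 2, the 12 h mutant replicates 1 or 2 or the 14 h control replicate 1. At 14 h it was 1 or 2. Beside the gut markers, the imaginal marker list summed to 413 to 533 CPM in 12 h mutants and 167 to 346 CPM in 12 h controls, most of it from hdc, while its 3 tested genes had a median log2 fold change of -0.60 and none passed. At 12 h the tracheal list summed to 2.29 to 7.85 CPM in mutants and 1.38 to 1.88 CPM in controls, with 0 of 2 tested genes called. At 14 h neuron markers summed to 24.8 to 29.6 CPM in mutants and 11.4 to 15.4 CPM in controls, with Syt1 the 1 of 4 tested that passed. Most of that sum came from elav, at a mean of 17.4 CPM in mutants and 8.05 CPM in controls. Muscle markers summed to 271 to 293 CPM in mutants and 180 to 200 CPM in controls at 14 h, with 0 of 8 passing. At the same time 1 of 7 fat body markers passed as higher, Fbp1 (0.80), and 1 of 3 tested hemocyte markers as lower, Pxn (-1.54). Of the 8 salivary gland markers, 2 were higher in mutants at 14 h (list median 0.15) and 3 at 12 h (list median 0.85), with 0 lower. The part of other cell types in the members' values was not tested.

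No member passed the test of whether the genotype effect differed between 14 and 12 h (0 of 25 in edgeR and 0 in DESeq2), beside a background of 2.72% of all genes, 1.75% positive and 0.963% negative. At an unadjusted p under 0.05 there was 1, fzr.

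Between 14 and 12 h Cdc7 fell and Dp rose in both genotypes, while the share of members that passed lay below the background. The part of the members' low counts in that share was not tested. In mutants 6 of 25 members passed (24%, background 45.1%), with Psf1, RnrS, Dp and Rbf higher at 14 h (16%, background 22.6%) and Cdc7 and chif lower (8%, background 22.4%). In controls 5 of 25 passed (20%, background 43.2%), with RnrS and Dp higher at 14 h (8%, background 20.8%) and Cdc7, dup and CycE lower (12%, background 22.4%). Cdc7, RnrS and Dp passed in both genotypes, which share no library in these comparisons but share 1 estimate of the spread. The time comparisons reuse the libraries of the genotype comparisons, so they are no independent evidence about Psf1 or RnrS.

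The scaling matters for time. Libraries at 14 h had TMM factors of 1.126 to 1.261 and those at 12 h of 0.7534 to 0.9422, and scaling by library size alone raised the median log2 fold change of all genes by 0.51 in either genotype. The share of called genes that were higher at 14 h was then 75% in place of 50.2% in mutants and 74.3% in place of 48.1% in controls. Under that scaling 9 members passed in controls in place of 5, with 8 of them higher at 14 h in place of 2. In mutants 8 passed in place of 6, with 7 higher in place of 4. No called member changed sign in either genotype.

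Cdc7 fell more than any other tested member in both genotypes. In mutants it was at 1.63, 1.87 and 2.53 CPM at 14 h against 168, 111 and 58.9 CPM at 12 h, and in controls at 4.06, 3.97 and 3.11 CPM at 14 h against 45.3, 226 and 246 CPM at 12 h. No 14 h library came near any 12 h library. The log2 fold change was -5.79 in mutants (SE 0.64, 55.4-fold lower, edgeR adjusted p = 3.01e-05) and -5.53 in controls (SE 0.62, 46.1-fold lower, edgeR adjusted p = 2.83e-05), and both calls held in all 21 alternatives. The gene (FBgn0028360) lies on the X chromosome from 6654541 to 6659709 on the plus strand and shares no exon with another gene.

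The regulatory subunit chif did not follow its kinase to that extent. It was at 87.7, 73.3 and 65.0 CPM in 14 h mutants against 121, 112 and 102 CPM in 12 h mutants, without overlap (-0.57, SE 0.17, edgeR adjusted p = 0.0176). In controls it was at 98.0, 99.7 and 89.5 CPM at 14 h against 90.8, 111 and 133 CPM at 12 h, overlapping (-0.22, SE 0.17, edgeR adjusted p = 0.328). The mutant change became -0.05 with library size alone (edgeR adjusted p = 0.827), and the call was also lost without the 12 h mutant replicate 1 (-0.51, edgeR adjusted p = 0.0628), the 14 h mutant replicate 2 (-0.55, edgeR adjusted p = 0.0588) or the 14 h mutant replicate 3 (-0.48, edgeR adjusted p = 0.0734).

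**Figure D4:**
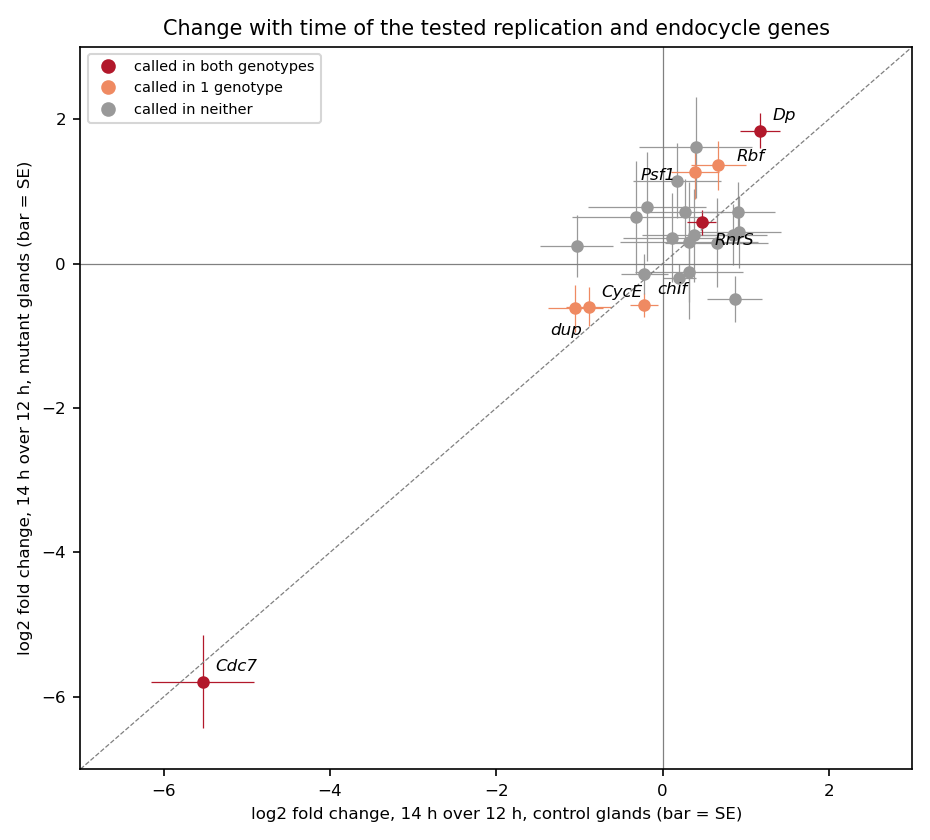
Log2 fold change of 14 h over 12 h in mutant glands (vertical axis) and in control glands (horizontal axis) for the 25 tested genes, with bars of 1 standard error and the line of equal change dashed. Cdc7 stands alone at -5.79 in mutants and -5.53 in controls, and Dp lies at the other end at 1.84 in mutants and 1.17 in controls.

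The licensing factor dup and the cyclin gene CycE fell in controls and had smaller negative values in mutants that did not pass. In controls dup was at 1.49, 2.30 and 1.33 CPM at 14 h against 3.46, 4.76 and 2.42 CPM at 12 h (-1.05, SE 0.33, edgeR adjusted p = 0.0202), and in mutants it stood at -0.62 (SE 0.32, edgeR adjusted p = 0.129). CycE was at 3.86, 4.92 and 3.33 CPM in 14 h controls against 4.99, 8.51 and 9.17 CPM in 12 h controls (-0.89, SE 0.27, edgeR adjusted p = 0.018), and in mutants it stood at -0.60 (SE 0.27, edgeR adjusted p = 0.0876). The 14 h libraries were below the 12 h libraries for both genes in both genotypes. The difference between genotypes was 0.43 (SE 0.45) for dup and 0.29 (SE 0.38) for CycE, and neither passed.

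With library size alone neither control call for dup or CycE held, at -0.54 (edgeR adjusted p = 0.202) and -0.35 (edgeR adjusted p = 0.281). The call for dup was also lost without the 12 h control replicate 2 (-0.81, edgeR adjusted p = 0.0968), the 14 h control replicate 1 (-0.96, edgeR adjusted p = 0.076) or the 14 h control replicate 3 (-0.91, edgeR adjusted p = 0.08). That for CycE was lost without the same 3 libraries or the 12 h control replicate 3, at -0.86 to -0.75 (edgeR adjusted p 0.0603 to 0.0791).

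Of the E2F pathway genes, Dp passed as higher at 14 h in both genotypes and Rbf in mutants. Under library size alone E2f1 (0.72, edgeR adjusted p = 0.0191) and E2f2 (1.39, edgeR adjusted p = 0.0239) also passed as higher in controls. E2f2 then passed in mutants too (1.24, edgeR adjusted p = 0.0333). Dp was at 48.9, 46.2 and 37.4 CPM in 14 h mutants against 12.5, 14.5 and 9.84 CPM in 12 h mutants (log2 fold change 1.84, SE 0.24, 3.59-fold, edgeR adjusted p = 9.78e-05). In controls it was at 35.3, 37.2 and 41.1 CPM at 14 h against 23.3, 15.1 and 11.8 CPM at 12 h (1.17, SE 0.24, 2.25-fold, edgeR adjusted p = 0.00187). Groups did not overlap in either genotype, both calls held in all 21 alternatives, and the 2 changes were not shown to differ (0.67, SE 0.34, edgeR adjusted p = 0.426).

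Rbf rose in mutants, at 12.5, 12.3 and 14.9 CPM at 14 h against 5.61, 4.44 and 5.48 CPM at 12 h (1.36, SE 0.34, 2.56-fold, edgeR adjusted p = 0.00644, held in all 21 alternatives). In controls it was at 14.1, 14.5 and 13.8 CPM at 14 h against 15.2, 5.91 and 5.19 CPM at 12 h, where the 12 h replicate 1 stood with the 14 h libraries (0.67, SE 0.33, edgeR adjusted p = 0.118). Without that library Rbf passed in controls too (1.28), as did Orc1 (-1.33), fzr (1.04) and E2f2 (1.38), and 9 members were called in place of 5. Control counts were 2 without the 12 h control replicate 2 or the 14 h control replicate 1, and 3 without the 12 h or 14 h control replicate 3. The mutant count ran from 4 to 9, and the 9 came without the 12 h mutant replicate 3, where Mcm3 (2.31), geminin (1.59), PCNA (1.11) and RnrL (1.62) passed as higher and Psf1 was lost.

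RnrS rose with time in both genotypes by a smaller factor, at a log2 fold change of 0.57 in mutants (SE 0.17, 1.48-fold, edgeR adjusted p = 0.0149) and 0.47 in controls (SE 0.17, 1.38-fold, edgeR adjusted p = 0.0384). Every 14 h library was above every 12 h library of its genotype. The mutant call was lost in 5 of 21 alternatives and the control call in 13, with values of 0.41 to 1.06 and 0.38 to 0.98. Single libraries that ended the mutant call were the 12 h mutant replicates 1 and 2 and the 14 h mutant replicate 3, and those that ended the control call were the 12 h control replicates 2 and 3, all 14 h controls, the 14 h mutant replicates 1 and 2 and replicate 1 of the 12 h mutants (edgeR adjusted p 0.0517 to 0.15).

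Psf1 rose in mutants between the times (1.27, SE 0.38, 2.42-fold, edgeR adjusted p = 0.0159) and stood at 0.39 in controls (SE 0.29, edgeR adjusted p = 0.293). The mutant call was lost with DESeq2 (1.18, adjusted p = 0.0526), without the libraries with gut markers (1.31, edgeR adjusted p = 0.0735), without the 12 h mutant replicate 3 (1.04, edgeR adjusted p = 0.0614) and without the 14 h mutant replicate 1 (1.09, edgeR adjusted p = 0.0562).

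The other 17 tested members passed in neither time comparison, with fzr close to the threshold in controls (0.87, SE 0.33, edgeR adjusted p = 0.0501). For the MCM genes the log2 ratio of 14 over 12 h ran from -0.11 to 0.79 in mutants (SE 0.62 to 0.83) and from -0.32 to 0.65 in controls (SE 0.58 to 0.83). Orc1 stood at 0.25 in mutants (SE 0.43) and -1.03 in controls (SE 0.44), and geminin at 1.15 in mutants (SE 0.52) and 0.17 in controls (SE 0.53). PolA1 stood at 1.61 in mutants (SE 0.70) and 0.40 in controls (SE 0.68), and PCNA at 0.40 in mutants (SE 0.42) and 0.85 in controls (SE 0.41). E2f1, the gene higher in 12 h mutants, stood at -0.20 in mutants and 0.20 in controls (SE 0.20 each), and E2f2 at 0.71 in mutants (SE 0.42) and 0.91 in controls (SE 0.44). RpA-70, among the most abundant members, stood at -0.14 in mutants and -0.22 in controls (SE 0.28 each).

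Markers of other tissues moved with time as well. The 7 fat body markers summed to 416 to 678 CPM in 14 h mutants against 141 to 254 CPM in 12 h mutants, with 6 of 7 higher, and to 499 to 547 CPM in 14 h controls against 153 to 220 CPM in 12 h controls, with 3 of 7 higher. Hemocyte markers summed to 13.1 to 14.6 CPM in 14 h mutants against 5.58 to 8.01 CPM in 12 h mutants, and to 12.4 to 16.1 CPM in 14 h controls against 4.85 to 6.28 CPM in 12 h controls. Neuron markers summed to 24.8 to 29.6 CPM in 14 h mutants against 3.29 to 7.85 CPM in 12 h mutants, and to 11.4 to 15.4 CPM in 14 h controls against 2.31 to 9.73 CPM in 12 h controls. Of the tested neuron markers 3 of 4 were higher in mutants and 0 of 4 in controls. The muscle marker sum was lower at 14 h, at 271 to 293 CPM in 14 h mutants against 1090 to 1360 CPM in 12 h mutants, and at 180 to 200 CPM in 14 h controls against 338 to 1350 CPM in 12 h controls, but nearly all of it came from bt. Only bt of 8 tested muscle markers passed as lower in mutants (list median -0.23), and bt, Tm2 and up passed in controls (list median -1.45). Salivary gland markers kept similar sums, at 202 to 231 CPM in 14 h mutants against 198 to 248 CPM in 12 h mutants, and 199 to 225 CPM in 14 h controls against 118 to 226 CPM in 12 h controls. Members of that list passed both ways, with 1 higher and 4 lower of 8 in mutants and 1 higher and 3 lower in controls, CrebA being the higher one and glue genes the lower ones in each. The part of these tissues in the members' changes was not tested.

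Other genes of replication and the endocycle, taken from lists and not among the 34, placed these values in context. Of 13 tested further replication genes 1 was higher and 0 lower in mutants at each time, and of 4 tested nucleotide supply genes none passed. Of 19 tested endocycle control genes 1 was higher and 3 lower in mutants at 14 h, and 1 higher and 2 lower at 12 h. Of 26 tested mitosis genes 1 was higher at 14 h and 2 at 12 h, with 0 lower. The list medians at 14 h were 0.34, 0.44, -0.03 and 0.08 in that order, and at 12 h -0.16, 0.21, -0.25 and -0.15, beside 0.05 and 0.01 over all genes.

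The largest of these differences was in Skp2, an F-box subunit of the SCF ubiquitin ligase. It was at 52.5, 47.0 and 54.6 CPM in 14 h mutants against 620, 609 and 641 CPM in 14 h controls (log2 fold change -3.60, SE 0.22, 12.1-fold lower, edgeR adjusted p = 5.45e-07). At 12 h it was at 83.3, 104 and 80.2 CPM in mutants against 170, 99.8 and 109 CPM in controls, overlapping (-0.50, SE 0.20, edgeR adjusted p = 0.111). It rose with time in controls by 2.30 on the log2 scale (SE 0.21) and had -0.80 in mutants (SE 0.20, edgeR adjusted p = 0.00662), a fall that became -0.27 with library size alone (edgeR adjusted p = 0.32).

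Regulators acting on the members' proteins also differed. The gene l(2)dtl, the fly Cdt2 that targets Dup and E2f1 for destruction during synthesis, was lower in mutants at both times. It was at 27.7, 38.6 and 24.7 CPM in mutants against 90.0, 92.2 and 75.8 CPM in controls at 14 h (-1.50, SE 0.20, edgeR adjusted p = 0.000225) and at 39.1, 46.7 and 32.9 CPM in mutants against 95.9, 81.5 and 85.8 CPM in controls at 12 h (-1.15, SE 0.19, edgeR adjusted p = 0.00215). The gene dap, which encodes the inhibitor of Cyclin E with Cdk2, was lower at 14 h, at 12.4, 13.2 and 13.9 CPM in mutants against 51.0, 53.6 and 44.2 CPM in controls (-1.91, SE 0.30, edgeR adjusted p = 0.000865). At 12 h dap stood at -0.71 (SE 0.32, edgeR adjusted p = 0.157).

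Cdk4, the kinase partner of Cyclin D, was higher in mutants at both times. It was at 7.85, 9.12 and 6.93 CPM in mutants against 3.67, 4.39 and 2.22 CPM in controls at 14 h (1.21, SE 0.25, edgeR adjusted p = 0.00548) and at 13.8, 18.2 and 14.7 CPM in mutants against 4.74, 4.62 and 4.15 CPM in controls at 12 h (1.78, SE 0.25, edgeR adjusted p = 0.000621). The mitotic phosphatase gene stg, the fly Cdc25, was higher too, at 28.4, 25.9 and 19.8 CPM in mutants against 3.47, 2.61 and 2.33 CPM in controls at 14 h (3.13, SE 0.36, edgeR adjusted p = 9.47e-05). At 12 h stg was at 9.45, 20.0 and 7.58 CPM in mutants against 2.95, 4.47 and 2.77 CPM in controls (1.86, SE 0.36, edgeR adjusted p = 0.00492). The replication gene called at 14 h was Prim1, the small primase subunit, at 6.94, 5.06 and 7.40 CPM in mutants against 2.87, 1.88 and 3.55 CPM in controls (1.22, SE 0.26, edgeR adjusted p = 0.00723). The calls for l(2)dtl, Cdk4 and stg at both times, and those for Skp2, dap and Prim1 at 14 h, held in all 21 alternatives.

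The other 12 h calls in these lists were timeout, fzy and mip130. The value of timeout, a relative of timeless, was 1.56 (SE 0.44, edgeR adjusted p = 0.0319). That of fzy, the Cdc20-type activator of the anaphase-promoting complex, was 1.22 (SE 0.36, edgeR adjusted p = 0.0375). For mip130, a subunit of the Myb and MuvB complex, it was -0.57 (SE 0.17, edgeR adjusted p = 0.0388). These 12 h calls were lost in 13 of 20, 12 of 21 and 15 of 21 alternatives in that order. Without the 12 h control replicate 1 fzy was at 0.78 (edgeR adjusted p = 0.0566).

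**Figure D5:**
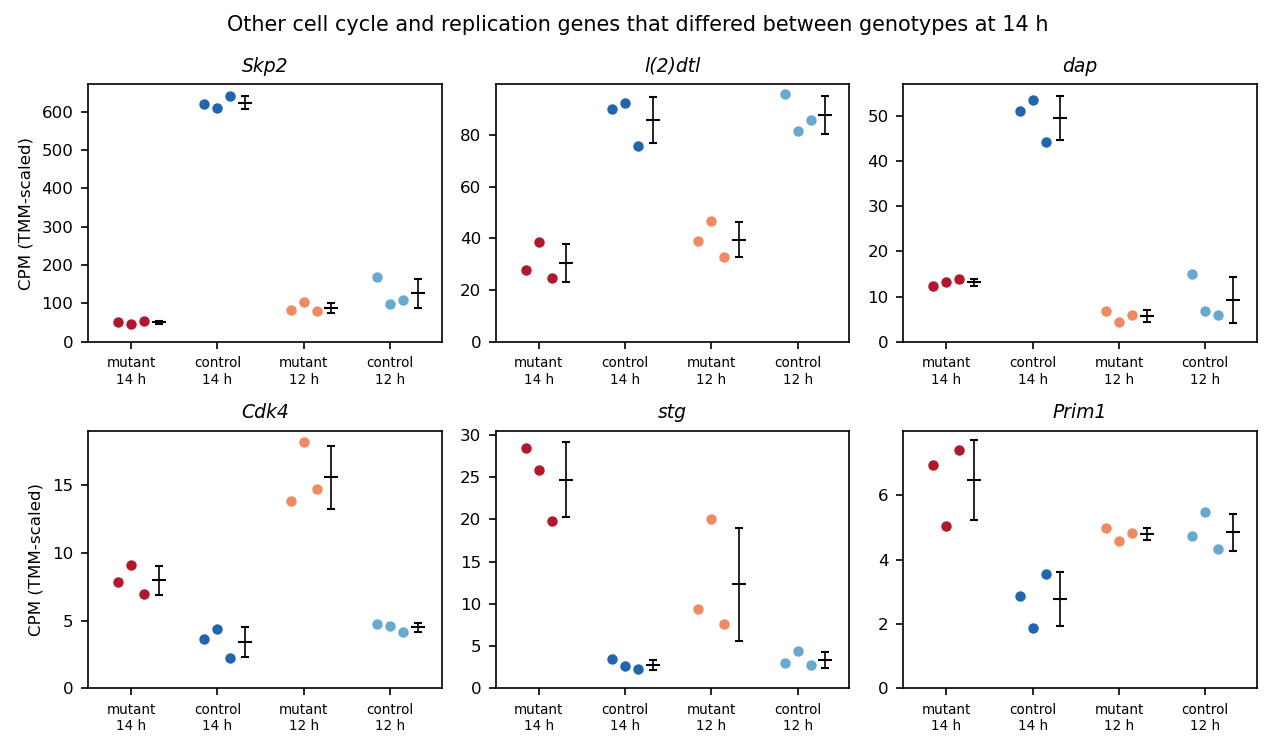
CPM in each library (points) with the group mean and SD (bars, n = 3) for 6 genes outside the set of 34 that differed between genotypes at 14 h, with mutant left of control at 14 h and then at 12 h; each panel has its own axis starting at 0. Skp2 is at 47.0 to 54.6 CPM in 14 h mutants and 609 to 641 CPM in 14 h controls.

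With time, of 19 endocycle control genes 6 were higher and 3 lower at 14 h in mutants, and 5 higher and 1 lower in controls. CycD, which encodes the partner of Cdk4, was at 25, 28.9 and 27.3 CPM in 14 h mutants against 6.25, 7.30 and 7.58 CPM in 12 h mutants (1.94, SE 0.21, edgeR adjusted p = 2.97e-05). In controls CycD was at 21.7, 25.7 and 21.7 CPM at 14 h against 11, 7.79 and 6.23 CPM at 12 h (1.45, SE 0.21, edgeR adjusted p = 0.000171). Among mitosis genes fzy fell in both, by 3.59 on the log2 scale in mutants (SE 0.40, edgeR adjusted p = 3.12e-05) and by 2.85 in controls (SE 0.40, edgeR adjusted p = 0.000152). Of the other 25 tested mitosis genes, BubR1 and stg were higher at 14 h in mutants and BubR1 in controls.

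In both genotypes mip120, a Myb and MuvB subunit gene, was higher at 14 h (0.76, SE 0.17 in mutants and 1.04, SE 0.18 in controls), as were dap (1.21, SE 0.31 in mutants and 2.41, SE 0.31 in controls) and BubR1, a spindle checkpoint gene (1.48, SE 0.37 in mutants and 1.03, SE 0.36 in controls). The mutant call for BubR1 was lost without the libraries with gut markers (edgeR adjusted p = 0.0705). Cul1, the scaffold of the SCF ligase, was lower at 14 h in mutants (-0.44, SE 0.14, edgeR adjusted p = 0.0213) and in controls (-0.65, SE 0.14), but under library size alone it stood at 0.07 in mutants, the other sign, and -0.12 in controls, and passed in neither. Cdk4 was lower in mutants (-0.97, SE 0.24) and did not pass under library size alone (-0.44). Of the 13 further replication genes Gnf1, the large subunit of the clamp loader, was higher at 14 h in mutants (0.62, SE 0.20) and in controls (0.61, SE 0.20), and Prim1 was lower in controls (-0.81, SE 0.27). The mutant call for Gnf1 was lost with RLE size factors (0.51, edgeR adjusted p = 0.0568) and that for Prim1 with library size alone (-0.29, edgeR adjusted p = 0.391). Of the 4 nucleotide supply genes dnk, the deoxyribonucleoside kinase, was higher in mutants (1.02, SE 0.36) and none passed in controls. Gnf1, dnk and the time values of Prim1 and stg, of Cul1 and dap in mutants and of BubR1 in controls were named after their values were seen.

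The list medians of the time comparisons, in the order of further replication, nucleotide supply, endocycle control and mitosis genes, were 0.62, 0.21, 0.64 and 0.50 in mutants and 0.26, 0.37, 0.34 and 0.33 in controls. They stood beside 0.39 in mutants and 0.32 in controls for the 25 tested members of the set, and 0.14 and 0.12 over all genes tested.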

How the data were processed

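The authors deposited read counts, whole numbers per gene and library, and all 12 libraries were used. The submitters' processing notes name STAR 2.7.6a, cutadapt 1.16, DESeq2 1.30.1 and featureCounts 1.6.3, and BDGP6 as build, without role or order. The annotation release, strand setting and treatment of reads that map to several places are not given in the sources used here. Symbols, positions and exon overlaps come from an Ensembl BDGP6 annotation, which may differ from that of the authors.

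One fit with the quasi-likelihood test of edgeR 4.0.16 in R 4.3.3 held every library, with a mean per group and 8 residual degrees of freedom, after filterByExpr and TMM scaling. The Benjamini-Hochberg adjustment ran over all 7584 genes tested, and genes passed at an adjusted p under 0.05. Standard errors (SE) are the absolute log2 fold change divided by the square root of F. Members were read out of this fit, and no test was run on the set as such. The members, the other gene lists and the sets of libraries left out were chosen with earlier results of these data known.

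Of the other lists, 27 of 30 replication genes, 5 of 6 nucleotide supply genes, 20 of 20 endocycle control genes and 30 of 30 mitosis genes were found in the table. Marker lists covered salivary gland, gut, fat body, hemocyte, muscle, neuron, trachea and imaginal tissue. All members are named, and from the other lists up to 6 genes a comparison that passed with the smallest p. To these come the genes said above to be named after their values were seen. Markers are given mainly as sums.

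Alternatives were DESeq2 1.42.0, RLE size factors, library size alone, a filter on low genes left off or set to 5 CPM in 3 libraries, fitting only the groups compared, a replicate block, and leaving out each library, the 2 with gut markers, or these plus the first 12 h control. The main fit was first tested on simulated counts, for the genotype comparisons only. The time comparisons, the interaction and the alternatives were not tested in that way. Promoter and protein sequences were not analysed here.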

Additional observations from a re-analysis of the deposited data

Results flagged for a closer look

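The genotype effect on Skp2 differed between the times by -3.10 on the log2 scale (SE 0.29, edgeR adjusted p = 0.000154), a test of the difference itself. It was the one gene of the replication, nucleotide supply, endocycle control and mitosis lists to pass that test, and no member of the set of 34 passed it. The log2 fold change of mutant over control was -3.60 at 14 h and -0.50 at 12 h. In mutants Skp2 averaged 51.4 ± 3.90 CPM at 14 h and 89.2 ± 13.1 CPM at 12 h, and in controls 624 ± 16.3 CPM at 14 h and 126 ± 38.5 CPM at 12 h (SD, n = 3 each). The call held in all 20 alternatives, between -3.36 and -2.98.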

How the results depend on the processing

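The called changes of members and of the list genes named by rule kept their direction in each alternative that gave a value. Of further list genes with a call, recomputed with RLE size factors and library size alone, Cul1 changed sign with time in mutants, at 0.07 under library size alone in place of -0.44. The genotype differences of Psf1 and the time changes of Cdc7 and Dp kept their calls in all 21 alternatives. The number of members called at 12 h moved to 2 with library size alone and to 1 without a filter, with a fit of the compared groups only or without the libraries with gut markers. At 14 h it moved to 2 with DESeq2 or RLE size factors and to 5 with a fit of the compared groups only. With time it moved to 9 in controls with library size alone or without the 3 libraries that stand apart, and to 3 in mutants without the libraries with gut markers. Leaving out single libraries gave 1 to 2 members at 14 h and 2 to 5 at 12 h, 4 to 9 with time in mutants, 2 to 9 with time in controls and 0 to 0 for the interaction. Over all genes, 2128 were called at 14 h and 459 at 12 h with a fit of the compared groups only. Without the libraries with gut markers 677 were called at 12 h and 84 in the interaction, without the 3 libraries 792 at 12 h, and with DESeq2 334 in the interaction. Single libraries left out gave 701 to 1586 genes at 14 h, 798 to 1186 at 12 h, 2907 to 3650 with time in mutants, 2515 to 3610 with time in controls and 105 to 430 in the interaction. The cause of these shifts was not tested.

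Deviations from the group means correlated at -0.257 to 0.238 over 18 pairs of libraries that share a replicate number. Pairs of unlike number were not set beside them, so this range cannot decide whether replicate numbers pair the libraries. A replicate block gave 1 member at 14 h, 3 at 12 h (fzr at 1.10, edgeR adjusted p = 0.0645), 6 with time in mutants, 4 with time in controls (RnrS at 0.47, edgeR adjusted p = 0.0534) and 0 in the interaction. Over all genes it gave 1103, 1041, 3322, 3153 and 158. Low counts limit most members: 15 of the 25 tested averaged below 5 CPM, and 9 more were too scarce to test.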
